A study of Mus musculus with 14 samples.

Results

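C1qa, C1qb and C1qc encode the A, B and C chains of C1q, the recognition part of the first component of complement. They are 3 of the 43432 genes in the deposited table and were taken from it by symbol. They were selected on their measured levels in these same libraries, which an earlier look had shown to be high in cells with much MHC class II and higher in bleomycin-treated than in control cells, so their values in those comparisons are given as a description, with no test. The change between weeks, the interaction of week with MHC class II level, and the balance between the 3 subunits were tested. Neither time nor the balance was used in the choice. The interaction is built from the comparisons between the gates. The tests of time and interaction thus share groups with the comparisons that chose the genes, so they are not independent of the choice.

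C1q is built from equal numbers of A, B and C chains, each with a collagen-like stalk and a globular head. The heads bind antibody in immune complexes, dying cells and other surfaces, and the stalks carry the proteases C1r and C1s, which cleave C4 and C2 and so start the classical pathway. Tissue macrophages and dendritic cells, rather than the liver, make most C1q, and C1q-bearing macrophages are a familiar feature of interstitial and monocyte-derived populations in the lung.

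RNA was sequenced from lung cells of male 129S1 mice, 10 to 12 weeks old, that had received bleomycin (labelled 3 U/k) or water through the trachea. Bleomycin is a drug that injures the lung and leads to fibrosis. SiglecF-positive, CD11c-positive cells, the surface pattern of alveolar macrophages, were sorted by their surface MHC class II. The 5 groups were MHCII-high cells and MHCII-low cells 2 weeks after bleomycin, the same gates 4 weeks after bleomycin (each in 3 libraries), and a control of 2 MHCII-low libraries (replicates 1 and 3) from mice given water. Water-treated MHCII-high cells were not analysed here. The labels do not say whether a library came from 1 mouse or a pool, nor which of 2 sorter models was used for it. P-values therefore measure the spread between these libraries, which may be in part technical.

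The 14 libraries held 15106415 to 88059638 reads in genes, and mitochondrial ribosomal RNA took 3.12% to 28.99% of them. Values are the normalized counts of the deposited table, in which 1 read is worth 0.3895 to 2.2374 depending on the library. The transcripts of the sort markers, Siglecf and Itgax, were present in every group, with a summed level between 29543 and 51365 normalized counts in every library. Siglecf was nevertheless lower in MHCII-high than in MHCII-low cells at both times by the model over all genes. The summed level of 5 MHC class II genes (H2-Aa, H2-Ab1, H2-Eb1, Cd74 and Ciita) separated the gates: it was 91730 to 221616 in the MHCII-high libraries and 1302 to 12501 in all MHCII-low libraries, controls included.

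The 3 genes form a tight cluster on the reverse strand of chromosome 4 (mm10, the GRCm38 assembly). In transcription order C1qa (ENSMUSG00000036887) spans 136895917 to 136898803, C1qc (ENSMUSG00000036896) 136889804 to 136893065, and C1qb (ENSMUSG00000036905) 136880129 to 136886187. Only 2851 bases separate C1qa from C1qc and 3616 bases C1qc from C1qb, so the whole cluster takes 18.7 kb. C1qa and C1qb each have 1 annotated transcript of 3 exons, C1qc has 2 transcripts, and no other annotated gene overlaps them. The combined exon lengths are 1040 bases for C1qa, 1088 for C1qb and 1931 for C1qc, so levels are compared between subunits only per kb of exon.

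The promoters are shown because the 3 genes lie together and were highest in the same libraries, which invites a comparison of their start regions. RefSeq promoter windows of GRCm38.p6, from 250 bases before to 50 bases after the transcription start, matched 2 of the 3 genes. The window of C1qb is chr4:136886151-136886450 and that of C1qc is chr4:136892865-136893164, both on the minus strand. The RefSeq start of C1qb lies 13 bases upstream of the gene's end in the deposited coordinates, and that of C1qc lies 151 bases inside it. Each is written 5′ to 3′ along the gene, with the letters GAGGAA, a PU box of the kind the macrophage factor PU.1 binds, or its reverse complement, in capitals.
C1qb: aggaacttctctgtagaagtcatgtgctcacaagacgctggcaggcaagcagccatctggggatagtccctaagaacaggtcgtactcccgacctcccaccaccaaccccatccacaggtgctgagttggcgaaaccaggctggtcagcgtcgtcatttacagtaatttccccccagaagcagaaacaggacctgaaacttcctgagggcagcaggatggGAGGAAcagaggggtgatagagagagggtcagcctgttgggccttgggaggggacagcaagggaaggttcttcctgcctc
C1qc: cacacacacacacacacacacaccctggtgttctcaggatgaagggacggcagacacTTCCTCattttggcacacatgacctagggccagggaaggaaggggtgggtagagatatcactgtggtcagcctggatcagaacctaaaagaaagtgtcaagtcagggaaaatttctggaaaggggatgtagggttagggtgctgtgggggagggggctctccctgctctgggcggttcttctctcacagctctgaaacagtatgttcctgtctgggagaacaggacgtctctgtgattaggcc
The window of C1qb held the PU box on its own strand, with its first base at position -30 from the start. The window of C1qc held it on the opposite strand, printed as TTCCTC, with its first base at position -193. On either strand, 28.3% of 32851 promoter windows held this motif, so its presence in both is a weak description. Neither window held the MAF half-site TGCTGAC (4.67% of all windows), the interferon-stimulated response element (3.44%) or the TATA box letters TATAAA (13.6%), searched on both strands and allowing overlap.

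C1qa, the A chain, was measured at 1846.6, 2016.8 and 3618.5 normalized counts in replicates 1 to 3 of MHCII-high cells at 2 weeks and at 955.3, 600.9 and 723.0 at 4 weeks. MHCII-low cells gave 53.7, 25.5 and 247.8 at 2 weeks and 9.4, 2.0 and 26.7 at 4 weeks, and the control libraries gave 3.1 and 0.0. Every MHCII-high library lay above every MHCII-low library, and replicate 3 was the highest of the MHCII-low libraries at both weeks. The lowest values rest on few reads: 2 in replicate 2 at 4 weeks, 8 in control replicate 1 and none in control replicate 3, where a count of 0 allows up to 2.58 normalized counts (3 reads).

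C1qb, the B chain, reached 5394.8, 5070.7 and 7713.2 normalized counts in MHCII-high cells at 2 weeks and 1508.9, 1421.5 and 1969.3 at 4 weeks. The MHCII-low libraries held 382.6, 100.3 and 417.9 at 2 weeks and 9.4, 23.5 and 142.9 at 4 weeks, against 12.1 and 1.7 in the controls. The 4-week MHCII-low group was uneven, since replicate 3 held more than the 2-week replicate 2, whereas replicate 1 (11 reads) lay between the controls.

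C1qc, the C chain, was at 4055.5, 4773.4 and 6897.4 normalized counts in MHCII-high cells at 2 weeks and at 2403.8, 2784.9 and 2685.0 at 4 weeks. In MHCII-low cells it was at 165.6, 60.5 and 384.3 at 2 weeks and 24.9, 24.5 and 109.8 at 4 weeks, and the controls were at 11.3 and 12.9. It was the only subunit whose 4-week MHCII-low libraries all lay above both controls.

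**Figure D1:**
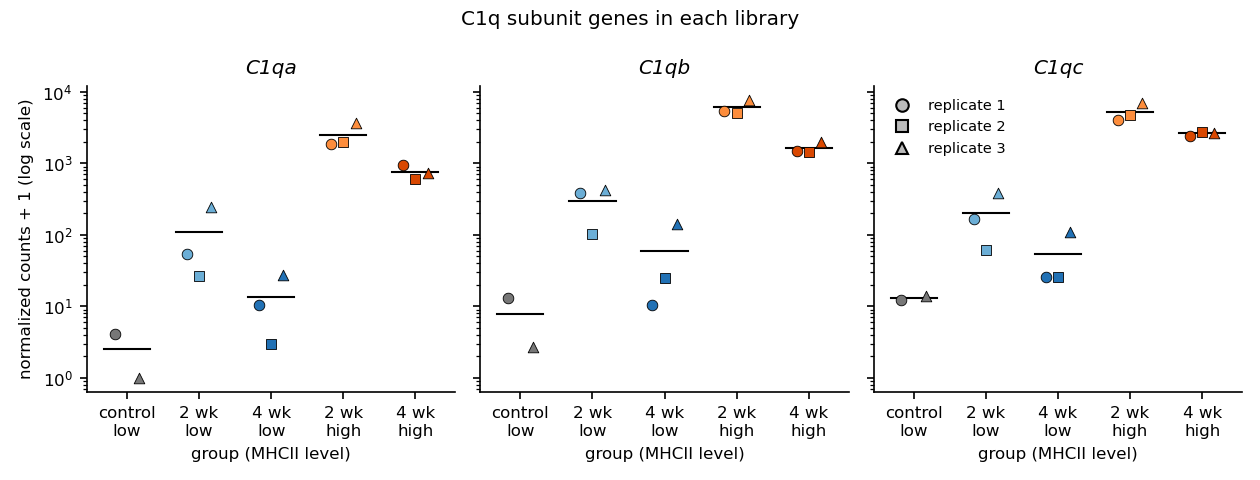
Normalized counts plus 1 (log scale) of C1qa, C1qb and C1qc in each of the 14 libraries, by group; points are libraries and bars are group means. In every panel the 6 MHCII-high libraries sit above the 6 MHCII-low libraries of treated mice, and the 2 control libraries lie at 12.9 normalized counts or below.

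The order of the group means was the same for the 3 genes: MHCII-high at 2 weeks, MHCII-high at 4 weeks, MHCII-low at 2 weeks, MHCII-low at 4 weeks, then control. For C1qa the means were 2494 ± 978, 759.7 ± 180.03, 109.0 ± 121, 12.7 ± 12.7 and 1.55 ± 2.19 normalized counts (SD, n = 3, and n = 2 for the control). For C1qb they were 6060 ± 1441, 1633 ± 294, 300.3 ± 174, 58.6 ± 73.3 and 6.9 ± 7.35, and for C1qc 5242 ± 1478, 2625 ± 198, 203 ± 165, 53.1 ± 49.1 and 12.1 ± 1.13. Neighbours in that order did not overlap between the MHCII-high groups, nor between MHCII-high cells at 4 weeks and MHCII-low cells at 2 weeks. The share of all genes without such overlap was not counted, so this is a description only. The MHCII-low groups at 2 and 4 weeks overlapped for all 3 genes, and MHCII-low cells at 4 weeks overlapped the controls for C1qa and C1qb.

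MHCII-high cells held on average 22.9 times the C1qa, 20.2 times the C1qb and 25.8 times the C1qc of MHCII-low cells at 2 weeks. At 4 weeks the ratios of the means were 59.8, 27.9 and 49.5. The groups overlapped for none of the 3 genes at either week. How many of all genes separate in this way was not counted, here or against control. By the model over all genes, 2.87% of the 17390 genes tested were called in either direction at 2 weeks and 2.5% at 4 weeks, and nothing is read from this for the 3 genes, because this contrast chose them. MHCII-low cells at 2 weeks held 70.3, 43.5 and 16.8 times the control level of C1qa, C1qb and C1qc without overlap, a contrast in which 1.91% of genes were called. The first of these ratios rests on 8 reads in the controls. Against the same control libraries, MHCII-low cells at 4 weeks held 8.19, 8.49 and 4.39 times the level, where 0.046% of genes were called. The control values of C1qb rest on 31 and 2 reads. On the log2(value + 1) scale the 4-week difference from control was 2.23 for C1qa, 2.48 for C1qb and 1.68 for C1qc, and leaving out single libraries moved it between 1.22 and 3.25, 1.34 and 3.62, and 0.97 and 2.03. For C1qa and C1qb the lowest of these came without control replicate 3 and the highest without control replicate 1. Against control at 2 weeks the differences of 5.14, 5.41 and 3.60 moved between 4.12 and 6.15, 4.27 and 6.55, and 2.95 and 4.28. In bulk RNA, fewer cells of a type and less RNA per cell cannot be told apart, and these ratios do not separate them.

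Other genes of the surface gate moved with C1q. The C1q level of MHCII-low cells was 4.37% (C1qa), 4.96% (C1qb) and 3.88% (C1qc) of that in MHCII-high cells at 2 weeks, and 1.67%, 3.59% and 2.02% at 4 weeks. For H2-Aa, H2-Ab1 and H2-Eb1, which encode chains of the MHC class II molecules themselves, the same share was 3.37%, 4.13% and 2.17% at 2 weeks and 2.42%, 3.58% and 1.23% at 4 weeks. The share for C1q thus lay within or near the range of the genes encoding the molecule used for sorting. In the 2-week MHCII-low libraries, C1qa, C1qb, C1qc, H2-Aa, H2-Ab1, H2-Eb1 and Cd74 (the invariant chain) were all highest in replicate 3 and lowest in replicate 2. Ciita, the activator of MHC class II genes, was also highest in replicate 3 but lowest in replicate 1 (5.20%, 7.66% and 9.32% of the MHCII-high mean). The C1qc share was 3.16%, 1.15% and 7.33% of the MHCII-high mean in replicates 1 to 3, and that of H2-Aa 2.87%, 1.57% and 5.66%. At 4 weeks C1qb was lowest in replicate 1 (0.58%, 1.44% and 8.75%). H2-Aa was then lowest in replicate 2 (1.90%, 1.76% and 3.6%), as were C1qa and C1qc. The C1qa value there rests on 2 reads, and C1qc was nearly equal in replicates 1 and 2 (29 and 25 reads). Whether MHCII-high cells in the MHCII-low gate contribute to the C1q reads there was not tested.

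Macrophage genes outside the gate had a wide range of shares. Cx3cr1, the fractalkine receptor of monocyte-derived cells, was at 4.50% of its MHCII-high level in 2-week MHCII-low cells and 3.09% at 4 weeks. Its 2-week libraries were at 2.68%, 4.82% and 5.99%, lowest in replicate 1, unlike C1q. Apoe, an apolipoprotein made by macrophages, was at 10.7% and 8.13%, and Itgam, an integrin chain of monocytes and neutrophils, at 22.3% and 10.3%. C3ar1, a complement receptor, was at 5.70% and 5.64%. In the 2-week libraries Apoe (9.04%, 3.85% and 19.1%) and C3ar1 (5.44%, 4.28% and 7.37%) had the replicate order of C1q. Itgam was highest in replicate 1 there (35.6%, 14.5% and 16.7%). Trem2, a lipid-sensing receptor, was at 93.8% and 69.3%, and Csf1r, the receptor of macrophage colony-stimulating factor, at 81.6% and 75.6%. A low share in the MHCII-low gate was therefore not shared by all macrophage genes.

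**Figure D2:**
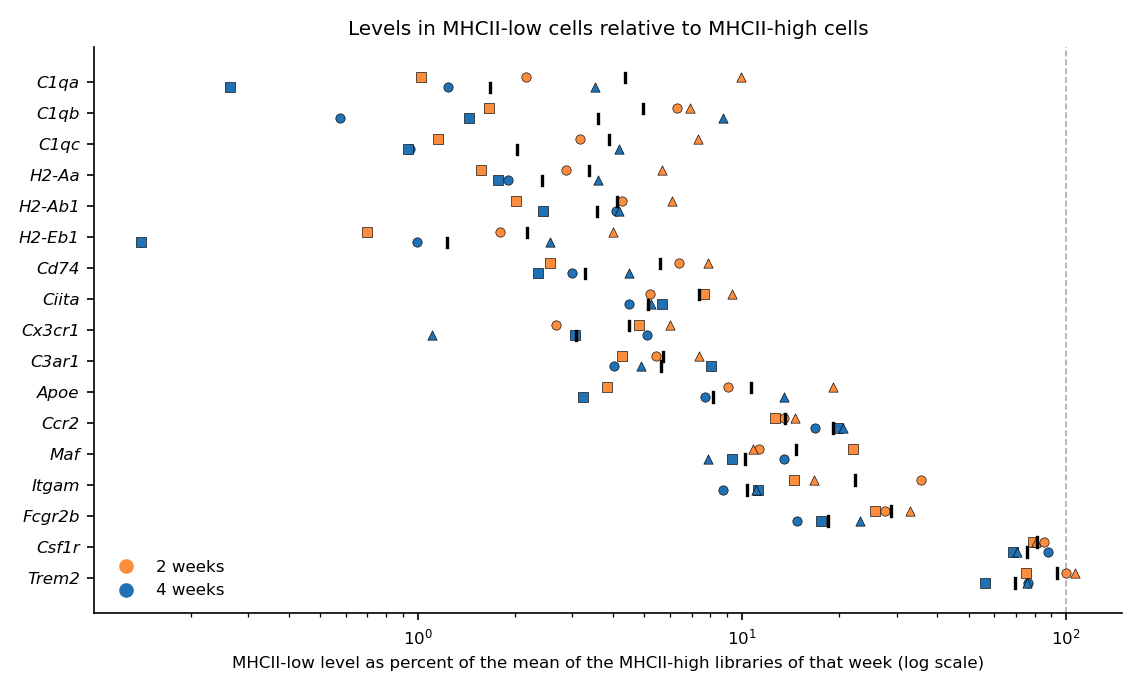
Level in MHCII-low libraries as a percent (log axis) of the MHCII-high mean of the same week, for C1qa, C1qb, C1qc, MHC class II genes and other macrophage genes. Points are the 3 MHCII-low libraries of each week (circle, square and triangle for replicates 1 to 3) and ticks their mean. C1q and the MHC class II genes sit at the low end, with 2-week means of 2.17% to 7.39%. Cx3cr1 (4.50%) and C3ar1 (5.70%) lie in the same range at 2 weeks. The means of Csf1r and Trem2 are at 69.3% or more at both times.

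Markers of other cell types also differed between the gates, and their part in the C1q difference was not tested. Over all genes tested, 2.29% were called higher and 0.581% lower in MHCII-high cells at 2 weeks, and 1.96% and 0.535% at 4 weeks. Of 14 markers of monocyte-derived or interstitial macrophages, 6 were higher in MHCII-high cells at 2 weeks and 5 at 4 weeks, and none was lower. Their summed level was 59004 to 66347 normalized counts in MHCII-high and 31790 to 38074 in MHCII-low cells at 2 weeks, 36014 to 45940 and 20377 to 25776 at 4 weeks, and 18604 to 21003 in controls. Tmem119 was at 0 in every control library and in every MHCII-low library at 4 weeks. Of 11 markers of resident alveolar macrophages, 8 were lower in MHCII-high cells at 2 weeks and 5 at 4 weeks, and their sum was 225852 to 311569 in MHCII-high libraries against 257786 to 461334 in all MHCII-low libraries. Chil3, with group means of 181559 to 278217, made up most of the resident sum. Csf1r, at 14120 to 29312, was the largest part of the monocyte-derived sum. Neither was called between the gates, so the sums mostly describe these genes.

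Dendritic cells, which also make C1q, were represented by 7 markers, of which 2 were higher in MHCII-high cells at 2 weeks and 3 at 4 weeks. Their sum was 662 to 1083 and 916 to 1429 normalized counts in MHCII-high cells at the 2 times, 113 to 188 and 88.4 to 176 in MHCII-low cells, and 261 to 266 in controls. Cd209a was at 0 in all 6 MHCII-low libraries of treated mice. B-cell markers summed to 1204 to 1638 and 763 to 3798 in MHCII-high cells, 49.4 to 219 and 40.5 to 2187 in MHCII-low cells, and 131 to 189 in controls, with 1 of 5 higher at 2 weeks and 3 at 4 weeks and with Cd79b at 0 in every MHCII-low library at 4 weeks. Alveolar type 2 markers summed to 6096 to 11658 and 3667 to 10941 in MHCII-high cells, 1495 to 3967 and 1618 to 3344 in MHCII-low cells, and 1139 to 1188 in controls, with 4 of 5 higher at 2 weeks and 2 at 4 weeks.

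Between 2 and 4 weeks C1q was lower at the later time in both gates, by group means, but no subunit passed the test by limma. In MHCII-high cells the log2 change on the log2(value + 1) scale was -1.67 ± 0.81 for C1qa (SE; limma adjusted p = 0.36), -1.88 ± 0.71 for C1qb (adjusted p = 0.22) and -0.96 ± 0.54 for C1qc (adjusted p = 0.45). For each gene the 4-week values all lay below the 2-week values, but how many of all genes separate in this way was not counted. By the test, a different measure, 1.07% of all genes were called in this comparison. In MHCII-low cells it was -2.90 ± 0.81 for C1qa (limma adjusted p = 0.12), -2.93 ± 0.71 for C1qb (adjusted p = 0.054) and -1.92 ± 0.54 for C1qc (adjusted p = 0.14), with overlapping ranges and 0.857% of all genes called.

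The call in MHCII-low cells changed with the method and with single libraries. Fitted by edgeR, C1qa passed (-3.25, adjusted p = 0.037). With a pseudocount of 5, C1qb passed (-2.72, limma adjusted p = 0.036). Without MHCII-low replicate 3 of 4 weeks, the library of that group with the most C1q, the change was -3.67 for C1qa (limma adjusted p = 0.041), -3.99 for C1qb (adjusted p = 0.0012) and -2.62 for C1qc (adjusted p = 0.012). Without MHCII-low replicate 2 of 2 weeks, the library of that group with the least, it was -3.59 for C1qb (limma adjusted p = 0.023) and -2.60 for C1qc (adjusted p = 0.017). Other settings moved the call the other way. Without MHCII-low replicate 2 of 4 weeks the limma adjusted p was 0.57, 0.23 and 0.54 for C1qa, C1qb and C1qc. Without MHCII-low replicate 3 of 2 weeks it was 0.5, 0.26 and 0.5, and with no filter 0.33, 0.24 and 0.37. The high-minus-low difference did not change detectably between the weeks: the interaction was 1.23 ± 1.14 for C1qa, 1.05 ± 1.00 for C1qb and 0.95 ± 0.77 for C1qc (log2, SE; limma adjusted p = 0.96, 0.96 and 0.93). Of all genes 0% were called for the interaction by limma, 987 had an unadjusted p below 0.05, edgeR called 0 and DESeq2 56.

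Per kb of exon, C1qb was the most abundant of the 3 in all groups of treated mice by group mean. In MHCII-high cells at 2 weeks the means were 5569 ± 1325 normalized counts per kb for C1qb, 2715 ± 765 for C1qc and 2398 ± 940 for C1qa (SD, n = 3). At 4 weeks they were 1501 ± 270.5, 1359 ± 102 and 731 ± 173. On this scale the MHCII-high libraries at 2 weeks placed each subunit between the 96.23 and 99.25 percentile of the genes tested, and control libraries between 3.32 and 23.33.

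The balance between subunits did not differ detectably between gates. The mean log2 ratio per kb of C1qa to C1qb was -1.15 ± 0.32 in MHCII-high and -1.75 ± 1.2 in MHCII-low libraries of treated mice (SD, n = 6 each), a difference of 0.60 with a pooled SD of 0.98 (two-sided exact permutation within week, p = 0.28, adjusted p = 0.42 over 3 pairs). For C1qa to C1qc it was -0.56 ± 0.49 and -0.75 ± 0.84 (difference 0.19, pooled SD 0.56, exact permutation p = 0.59, adjusted p = 0.59). For C1qb to C1qc it was 0.59 ± 0.54 and 1.00 ± 0.86 (difference -0.41, pooled SD 0.54, exact permutation p = 0.20, adjusted p = 0.42). The smallest p these 400 arrangements allow is 0.005, and the adjusted p reached 0.06 for the pairs with C1qb when single libraries were left out. The spread was wider in MHCII-low libraries, and few reads stand behind many of their ratios. At 2 weeks C1qa to C1qb was 0.149 in replicate 1 (24 and 171 reads) and 0.621 in replicate 3 (450 and 759 reads). The cause of the spread was not tested.

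Within MHCII-high cells, the ratio of C1qb to C1qc per kb was 2.36, 1.89 and 1.98 in replicates 1 to 3 at 2 weeks and 1.11, 0.906 and 1.30 at 4 weeks. The groups did not overlap. This pair was singled out after its values were seen, and the difference was not tested.

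**Figure D3:**
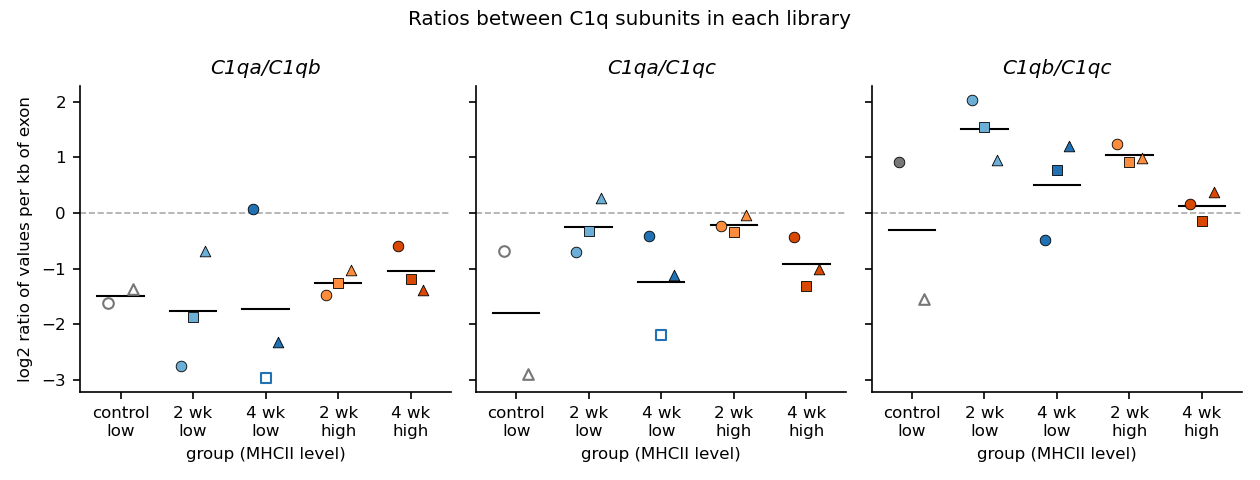
Log2 ratio per kb of exon of each pair of C1q subunits, per library, for MHCII-high and MHCII-low libraries of each week and the controls; points are libraries (open where a subunit has fewer than 10 reads) and bars are group means. The MHCII-low points spread over a wider range than the MHCII-high points, and for C1qb to C1qc the 2-week MHCII-high libraries sit above those of 4 weeks.

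The genes that act with C1q were followed in lists by role, 60 genes in all, of which 40 were tested. Of the 40, 5 were higher and 2 lower in MHCII-high than in MHCII-low cells at 2 weeks, beside 2.29% higher and 0.581% lower over all genes tested, with a median log2 difference of 0.08 against 0.08 over all genes. At 4 weeks 6 were higher and 1 lower (1.96% and 0.535% of all genes, median -0.01 against -0.02). In MHCII-low cells at 2 weeks against control 7 were higher and 0 lower (1.48% and 0.426% of all genes, median 0.56 against -0.09). They were C3, C3ar1, C4b, Cd93, Fcgr2b, Fcgr3 and Itgam. Without either control library the calls of C3 and C3ar1 were lost (limma adjusted p up to 0.098 and 0.11), and that of Itgam was lost in 2 alternatives (adjusted p up to 0.33). Markers of other cell types were called in the same comparison, and their part in it was not tested. Higher were 4 of 14 of the monocyte-derived or interstitial list (Apoe, Csf1r, Itgam and Cd14), 2 of 5 alveolar type 2 markers (Sftpc and Slc34a2), 1 of 5 neutrophil markers (Cxcr2) and 4 of 5 MHC class II genes. The neutrophil markers summed to 8384 to 10507 normalized counts in 2-week MHCII-low cells, 5243 to 6719 at 4 weeks and 4179 to 7776 in controls. Csf3r and Cxcr2 made up most of this sum. The mean of Csf3r was 4969 in controls and 4888 in 2-week MHCII-low cells, and that of Cxcr2 was 847 and 4179. The rise of the sum thus mostly describes Cxcr2. The sums of the other lists stand above. At 4 weeks against the same controls limma called 0 of the 40 in either direction (0.0345% higher and 0.0115% lower over all genes, median 0.21 against -0.06), and 6 had an unadjusted p below 0.05. There edgeR called 0 and DESeq2 called 2, C4b and Emilin1. These lists were put together with earlier results of these data known, so the counts describe them and are not evidence of a pathway.

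The proteases that C1q carries did not pass the test. C1ra, the C1r protease, had means of 317 normalized counts in controls, 633 and 487 in the 2-week and 4-week MHCII-low groups and 373 and 357 in the MHCII-high groups. It was not called in any comparison, with -0.75 ± 0.31 for MHCII-high against MHCII-low at 2 weeks (log2, SE; limma adjusted p = 0.24). C1ra in 2-week MHCII-low cells lay between 496.8 and 756.2, and the controls were at 301.3 and 333.4. The difference was 0.97 ± 0.35 and did not pass (limma adjusted p = 0.21). The share of all genes that separate in this way was not counted. C1s1 had group means of at most 15.2 normalized counts and was at 3.03 ± 1.40 in that comparison (limma adjusted p = 0.37), and C1rb and C1s2 were too low to test. C1ra and C1rb, as well as C1s1 and C1s2, are close copies whose reads the counting may divide. Serping1, the C1 inhibitor, had group means of 15.3 to 90.9 normalized counts and was not called. The list's tested count was 3 of 5, with 0 called in each direction in all comparisons.

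The substrates of the pathway went their own ways. C4b, the C4 protein that C1s cleaves, was at 53.4 and 34.4 normalized counts in the controls, 1226.1, 1417.2 and 2960.1 in 2-week MHCII-low cells and 1380.5, 1377.0 and 2823.6 in MHCII-high cells at 2 weeks. At 4 weeks it was at 218.7, 210.8 and 231.4 in MHCII-low and 374.6, 604.0 and 196.0 in MHCII-high cells. C4b rose in MHCII-low cells at 2 weeks against control (log2 5.30 ± 0.44, limma adjusted p = 2e-07) and was lower at 4 than at 2 weeks in both gates (-2.97 ± 0.40 in MHCII-low, adjusted p = 0.00019; -2.30 ± 0.40 in MHCII-high, adjusted p = 0.0064). The last call was lost without MHCII-high replicate 3 of 2 weeks (adjusted p = 0.057). C4b was not called between the gates (0.02 ± 0.40 at 2 weeks, limma adjusted p = 0.99). C4b has a near-identical copy, C4a, and the division of reads between them is uncertain.

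C3, which the C4b-containing convertase cleaves, was slightly lower in MHCII-high cells: -0.69 ± 0.16 at 2 weeks (limma adjusted p = 0.023) and -0.75 ± 0.16 at 4 weeks (adjusted p = 0.014). It fell between 2 and 4 weeks in both gates, by 0.99 on the log2 scale in MHCII-low cells (limma adjusted p = 0.002) and by 1.05 in MHCII-high cells (adjusted p = 0.0038). Both calls between gates were lost in some alternatives, with an adjusted p up to 0.24 at 2 weeks. Hc, which encodes C5, was higher in MHCII-high cells at 2 weeks (2.86 ± 0.64, limma adjusted p = 0.015) and at 4 weeks (3.98 ± 0.64, adjusted p = 0.00075), and the first call was lost in 4 alternatives (adjusted p up to 0.094).

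Among 10 regulators and receptors of complement, 2 were higher in MHCII-high cells at each time (C3ar1 and Itgam). C3ar1, the receptor of the C3a fragment, was at 7333.0, 5892.4 and 10970.3 normalized counts in MHCII-high cells at 2 weeks and 438.5, 345.5 and 594.7 in MHCII-low cells. At 4 weeks it was at 1958.4, 3040.6 and 3702.5 in MHCII-high and 116.6, 232.4 and 141.8 in MHCII-low cells, and the controls were at 142.2 and 134.3. It was higher in MHCII-high cells by 4.12 ± 0.30 at 2 weeks and 4.15 ± 0.30 at 4 weeks (log2, limma adjusted p = 3.5e-08 and 2.2e-08), and C3ar1 was lower at 4 than at 2 weeks in both gates (-1.51 ± 0.30 in MHCII-low, adjusted p = 0.012; -1.48 ± 0.30 in MHCII-high, adjusted p = 0.02). These 2 calls over time were each lost in 4 alternatives (adjusted p up to 0.098 and 0.11).

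Itgam, the alpha chain of complement receptor 3, was higher in MHCII-high cells by 2.28 ± 0.30 and 3.26 ± 0.30 (limma adjusted p = 0.00011 and 6.8e-07) at the 2 times. It was also higher in MHCII-low cells at 2 weeks than in controls (1.75 ± 0.34, limma adjusted p = 0.0056) and fell by 1.96 on the log2 scale between the weeks in MHCII-low cells (adjusted p = 0.0011). C5ar1, the C5a receptor, went the other way at 2 weeks (-0.77 ± 0.15, limma adjusted p = 0.0056), but that call was lost without MHCII-high replicate 2 of 2 weeks (adjusted p = 0.062).

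Of the 6 tested surface molecules linked to C1q binding, Cd93, which was first described as a C1q receptor on phagocytes, was the only one that limma or edgeR called. It was higher in MHCII-low cells at 2 weeks than in controls (1.57 ± 0.21, limma adjusted p = 0.00012), lower at 4 than at 2 weeks in MHCII-low cells (-1.60 ± 0.19, adjusted p = 4.6e-05) and higher in MHCII-high than in 4-week MHCII-low cells (0.97 ± 0.19, adjusted p = 0.0048). Lrp1, a scavenger receptor for C1q-coated material, was very abundant, with group means of 79001 to 109012 normalized counts, and limma called neither it, Calr, C1qbp nor Lair1. DESeq2 also called C1qbp between the gates at 2 weeks, where limma gave -0.92 ± 0.29 (adjusted p = 0.096).

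Fcgr2b, the inhibitory receptor for antibody complexes, was higher in MHCII-high cells by 1.79 ± 0.21 at 2 weeks (log2, limma adjusted p = 2.8e-05) and 2.45 ± 0.21 at 4 weeks (adjusted p = 3e-07). It rose by 2.97 ± 0.24 in MHCII-low cells at 2 weeks against control (limma adjusted p = 1.3e-07) and was lower at 4 than at 2 weeks in both gates (-2.13 ± 0.21 in MHCII-low, adjusted p = 6.8e-06; -1.48 ± 0.21 in MHCII-high, adjusted p = 0.0018). Fcgr3 was higher in MHCII-low cells at 2 weeks than in controls (0.95 ± 0.20, limma adjusted p = 0.01), which was lost in 3 alternatives (adjusted p up to 0.34). Fcgr2b was the only one of the 4 Fc receptors called between the gates.

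Of 3 factors reported to act on C1q genes, 1 was called. Maf was higher in MHCII-high cells, by 2.77 ± 0.52 and 3.16 ± 0.52 (limma adjusted p = 0.004 and 0.00096), and did not pass the test against control at 2 weeks (-0.41 ± 0.58, adjusted p = 0.85). Spi1, which encodes PU.1, and Irf8 were not called in any comparison.

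Over time, 6 of the 40 partner genes fell and 0 rose from 2 to 4 weeks in MHCII-low cells (0.748% lower and 0.109% higher over all genes, median -0.25 against 0.03). They were C3, C3ar1, C4b, Cd93, Fcgr2b and Itgam. In MHCII-high cells 4 fell (C3, C3ar1, C4b and Fcgr2b) and C5ar1 rose (0.759% lower and 0.311% higher over all genes, median -0.32 against -0.07). Cxcr2 fell in both gates over the same time, the only 1 of 5 listed neutrophil markers called there. Of the 7 tested C1q-domain relatives, such as Emilin2, none was called by limma in any comparison, and DESeq2 called C1qtnf1 between the gates at 4 weeks and for the interaction and Emilin1 at 4 weeks against control. The neighbouring genes Ephb2 and Zbtb40, the tested ones within 200 kb of the C1q cluster, were not called either.

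**Figure D4:**
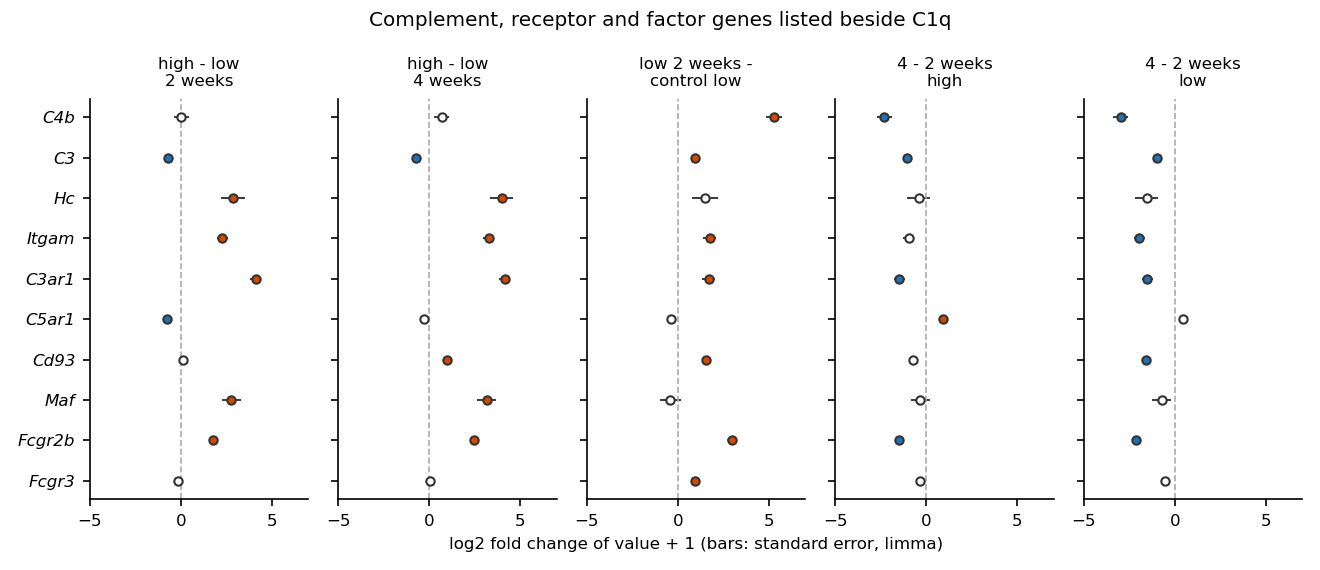
Log2 fold change (points) with its SE (bars) on the log2(value + 1) scale of the C1q partner genes called in at least 1 comparison, in MHCII-high against MHCII-low cells at each time, 2-week MHCII-low cells against control, and 4 against 2 weeks within each gate; filled points passed an adjusted p of 0.05 (orange higher, blue lower). C3ar1, Itgam, Maf and Fcgr2b lie right of zero between the gates, and C4b lies at 0.02 there at 2 weeks while rising by 5.30 against control.

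The genes whose pattern was most like C1q were sought over all genes tested, by the root mean square difference over the 14 libraries between centred log2 values and the mean C1q profile. The members themselves differed from their mean by 0.45 to 0.50, a gene that did not change would differ by 3.54, and the median gene differed by 3.61. The closest were H2-Aa (0.89), H2-Eb1 (0.91), Cmklr1 (0.95), Kcnk13 (0.97) and H2-Ab1 (1.06), followed by Apoe (1.09), B4galt6 (1.11), Cd74 (1.20), Blnk (1.24) and Rasgrp1 (1.30). Of these 10, 4 were MHC class II genes. The profile holds the differences between gates and from control on which C1q was chosen. MHC class II genes follow the sorting gates, so their place in this ranking is a description and not an independent result. C3ar1 had a distance of 1.52.

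Cmklr1, a chemerin receptor of macrophages and dendritic cells, had means of 2765 ± 287 and 1269 ± 667 normalized counts in MHCII-high cells at 2 and 4 weeks, 118 ± 95 and 32.9 ± 17.7 in MHCII-low cells, and 12.6 ± 13.0 in controls. Kcnk13, a potassium channel, was at 200 ± 66.2 and 60.2 ± 27.7 in MHCII-high cells, 6.93 ± 2.74 and 2.83 ± 4.91 in MHCII-low cells, and at 0 in both controls. Apoe was at 5962 ± 1669 and 2362 ± 1353 in MHCII-high cells, 636 ± 463 and 192 ± 121 in MHCII-low cells and 23.5 ± 29.6 in controls. These 3 followed the order of C1q by group mean. Blnk, an adaptor protein best known in B cells, was at 1269 ± 437 and 903 ± 306 in MHCII-high and 98.7 ± 17.6 and 44.8 ± 14.3 in MHCII-low cells. Its control mean was 8.75 ± 12.4. B-cell markers differed between the gates as described above, and their part in the Blnk level was not tested.

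**Figure D5:**
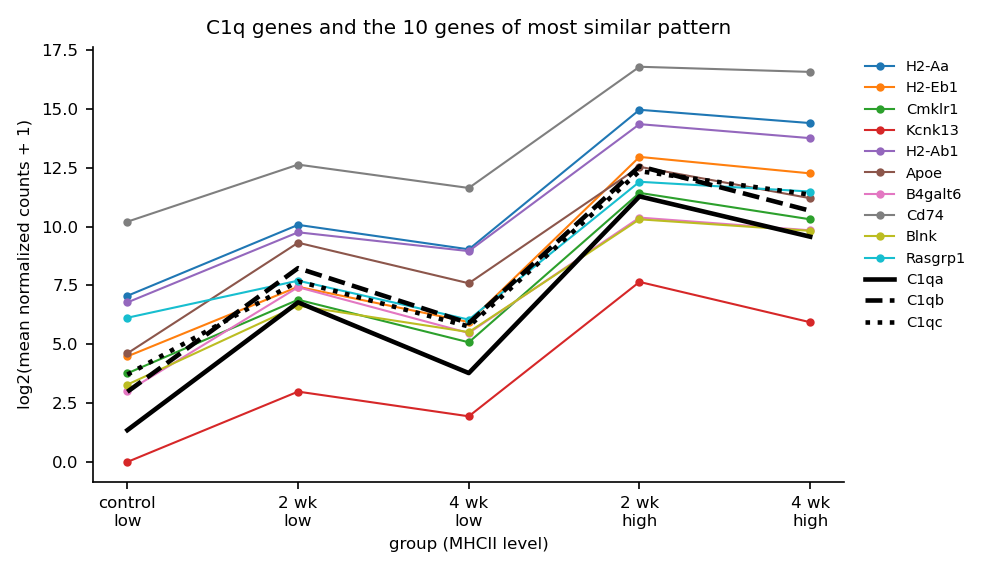
Log2 of the group mean normalized counts plus 1 for C1qa, C1qb and C1qc (black) and the 10 genes of most like pattern (coloured), in the 5 groups in the order control, MHCII-low, MHCII-high; each line is 1 gene. All lines step up from the MHCII-low groups to the MHCII-high groups and are lower at 4 than at 2 weeks within each gate.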

How the data were processed

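The labels' protocols describe bead-purified mRNA, amplified cDNA (NuGen Ovation) and Nextera XT tagging, and name no molecular identifiers. The submitters' processing notes name STAR, DESeq2 and the build mm10 without saying what each was used for. The deposited signal is normalized counts per gene. It holds whole multiples of the worth of 1 read, within a rounding of 0.05, for at least 99.9% of the values in each library, and reads were recovered by dividing by that step. In control replicate 1 the step is so small that rounding hides the multiples for part of the low values. GC percent, exon length and coordinates are the authors' deposited columns, and 652 genes without a symbol kept their Ensembl identifier. Exon counts and overlaps came from a GENCODE annotation of GRCm38.

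The members and all gene lists were chosen with earlier results of these data known, and 2 listed genes are not reported here and were left out of the lists. Groups came from the labels. The test was limma 3.58.1 (R 4.3.3) on log2(value + 1), its variance following a trend in the mean, with 14 libraries and 5 groups in 1 fit. It covered the 17390 genes that reached 10 normalized counts in 2 or more libraries, with Benjamini-Hochberg adjustment and a threshold of 0.05. The log2 scale understates the change of low genes. The model was tested on simulated data. Subunit ratios, per kb of exon, were compared by a two-sided exact permutation within week. Named genes were the members, partner genes called in the comparison, up to 3 abundant uncalled genes per list, the MHC class II genes, markers that moved with a result, and the 10 genes of most like pattern. Alternatives were a pseudocount of 5, no filter, edgeR 4.0.16 and DESeq2 1.42.0 on recovered reads, TMM factors, the mitochondrial ribosomal RNA share as a covariate, removal of the GC trend, a replicate block, and leaving out each library. Intervals and limits for a count of 0 cover counting error only.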

Additional observations from a re-analysis of the deposited data

How the results depend on the processing

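The 3 C1q changes over time in MHCII-low cells kept their direction in all alternatives run, and their call did not stay the same. Fitted by edgeR, C1qa was at -3.25 (adjusted p = 0.037), and with a pseudocount of 5 C1qb was at -2.72 (limma adjusted p = 0.036). Leaving out single libraries gave -3.67 to -2.00 for C1qa, -3.99 to -2.09 for C1qb and -2.62 to -1.28 for C1qc. C1qa in MHCII-low cells at 2 weeks against control was at 3.59 with a pseudocount of 5, against 5.14. The C1qa to C1qc ratio turned to -0.08 with a pseudocount of 5 and to -0.05 without MHCII-low replicate 2 of 4 weeks (from 0.19; leaving out single libraries gave -0.05 to 0.39). The cause of these shifts was not tested.

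Same-numbered libraries correlated between gates by 0.025 to 0.107 at 2 weeks and 0.009 to 0.034 at 4 weeks in their deviations from the group means, so the numbers were not taken to pair them. With the replicate number as a block, C1qb was at -2.93 (limma adjusted p = 0.048) and C1qc at -1.92 (adjusted p = 0.046) between weeks in MHCII-low cells, and genes called in MHCII-low cells at 4 weeks against control numbered 16 instead of 8.

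Counts of all genes called depended on the tool. MHCII-high against MHCII-low at 2 weeks gave 499 (79.8% higher), 316 without a filter, 1055 by DESeq2, 207 with the mitochondrial covariate (90.8% higher), 432 by edgeR (68.8% higher) and 205 to 457 without single libraries. At 4 weeks it gave 434, 282 without a filter, 898 by DESeq2 and 266 to 483 without single libraries. MHCII-low cells at 2 weeks against control gave 332 (77.7% higher), 341 without a filter (58.1% higher), 660 by DESeq2, 213 with the covariate and 127 to 307 without single libraries. At 4 weeks against control the 8 calls (75% higher) became 65 without a filter (10.8% higher), 2 by edgeR, 77 by DESeq2, 2 with the covariate, 5 with the GC trend removed and 1 to 8 without single libraries. Between weeks, MHCII-high cells gave 186 (29% higher), 103 without a filter, 112 by edgeR, 638 by DESeq2 (41.1% higher) and 64 to 298 without single libraries. MHCII-low cells gave 149 (12.8% higher), 322 by DESeq2 (24.5% higher) and 95 to 138 without single libraries. The interaction gave 0 genes by limma, 56 by DESeq2 and 0 to 2 without single libraries (2 without MHCII-high replicate 3 of 4 weeks).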

Other observations

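Some genes of the list of 14 monocyte-derived or interstitial macrophage markers were uneven among the MHCII-high libraries. They were picked only after their values were examined. Cd163, a scavenger receptor, was at 551.5 and 398.5 normalized counts in replicates 1 and 2 of 4 weeks and at 35.3 in replicate 3. Lyve1, a hyaluronan receptor, was at 172.7 and 589.9 in replicates 1 and 2 of 4 weeks and at 1.2 in replicate 3, and at 495.0, 205.6 and 1.7 in replicates 1 to 3 of 2 weeks. Folr2, a folate receptor, went the other way, at 8.3, 11 and 248.3 at 4 weeks and 23.7, 7.4 and 90.4 at 2 weeks. Other genes of the list differed at 4 weeks: Tmem119 was at 31.2, 113.0 and 1.2, Cx3cr1 at 1017.7, 1317.9 and 843.5, and Apoe at 1352.8, 1834.1 and 3899.7. Low values in replicate 3 were not particular to this list. The B-cell marker Cd79a was at 378.8, 208.7 and 6.1, but Cd79b at 108.2, 37.7 and 236.1. The dendritic-cell marker Cd209a was at 95.7, 139.6 and 8.5. In the same 4-week libraries C1qa was at 955.3, 600.9 and 723.0, C1qb at 1508.9, 1421.5 and 1969.3, and C1qc at 2403.8, 2784.9 and 2685.0. Whether C1q follows any of these markers across libraries was not tested. C1qtnf9, a relative with a C1q domain, was at 108.3 in replicate 3 of 4 weeks (89 reads) and at 0.4 or below in every other library.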
